A study of Mus musculus with 4 samples.

Results

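The interferon regulatory factors (IRFs) were followed in T cells of KO and WT mice, by all 14 probe sets that the array annotation assigns to 1 of 8 IRF genes alone (Irf1, Irf2, Irf3, Irf4, Irf5, Irf7, Irf8 and Irf9). A probe set is a group of short probes for 1 transcript, and 18194 genes in all are named in this way in the table used here. Naive T cells taken fresh from spleen had been stimulated for 3 days under conditions that induce regulatory T cells (Treg cells), CD4 T cells that dampen immunity, and RNA was hybridised to 4 single-colour Affymetrix arrays. 2 arrays carried KO cells and 2 carried WT cells, and the series was made to find genes that differ between the genotypes. The labels name neither the deleted gene nor the strain, age or Cre driver, so the KO is described here only as KO. Whether the arrays of a genotype came from separate mice and cultures is not spelled out beyond a number for each, so the p-values measure only how far these samples spread, and some of that spread may be technical.

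IRFs are transcription factors that share a DNA-binding domain recognising GAAA repeats, the core of the interferon-stimulated response element (ISRE). Irf3, Irf7 and Irf5 are switched on by sensors of microbial nucleic acids and Toll-like receptors and drive interferon and cytokine genes, Irf9 carries the signal of the type I interferon receptor as part of the complex ISGF3, and Irf1 and Irf2 act on overlapping sites as an activator and mainly a repressor. Irf4 and Irf8 are the lymphoid and myeloid relatives. In T cells Irf4 is induced by antigen receptor signals, binds with Batf and Jun proteins, and is needed for effector Treg cells and for several helper T cell programmes.

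Signals are MAS5 values on a linear scale, scaled by the authors so that every array has the same trimmed mean. KO was compared with WT on log2(signal + 16) with limma over 27022 probe sets, and the words rose and fell are kept for an adjusted p under 0.05. In all, 4608 of these probe sets were called, or 17.1%, with 7.89% higher and 9.17% lower in KO cells. That balance turned when 1 WT array was left out, with 1623 higher and 1163 lower without WT replicate 2 and 1611 higher and 1421 lower without WT replicate 1. The overall median log2 fold change was -0.08, which was not subtracted from the values below. Arrays of 1 genotype correlated at r = 0.977 for KO and 0.979 for WT, and arrays of different genotype at 0.933 to 0.941, across probe sets, which are not independent. The number of arrays limits the precision, since with 2 arrays a side the smallest two-sided p from permuting the labels exactly is 0.333.

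Of the 8 genes, Irf4 rose and Irf2 fell in KO cells, and the other 6 genes had no called probe set. All 14 probe sets passed the filter on low values. 3 of the 14 were called (21.4%), 2 higher and 1 lower, beside 17.1% over the whole array, so the share of called IRF probe sets lies near that of all probe sets. Their median log2 fold change was -0.03, against -0.08 over the whole array, and 8 of the 14 lay above that overall median. The KO and WT arrays did not overlap at 8 of the 14 probe sets, 3 with KO above and 5 with KO below, beside 60.2% of all tested probe sets (25.1% with KO above and 35.1% with KO below). In these bulk samples a different number of cells of a type and a different amount of RNA per cell cannot be told apart.

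**Figure D1:**
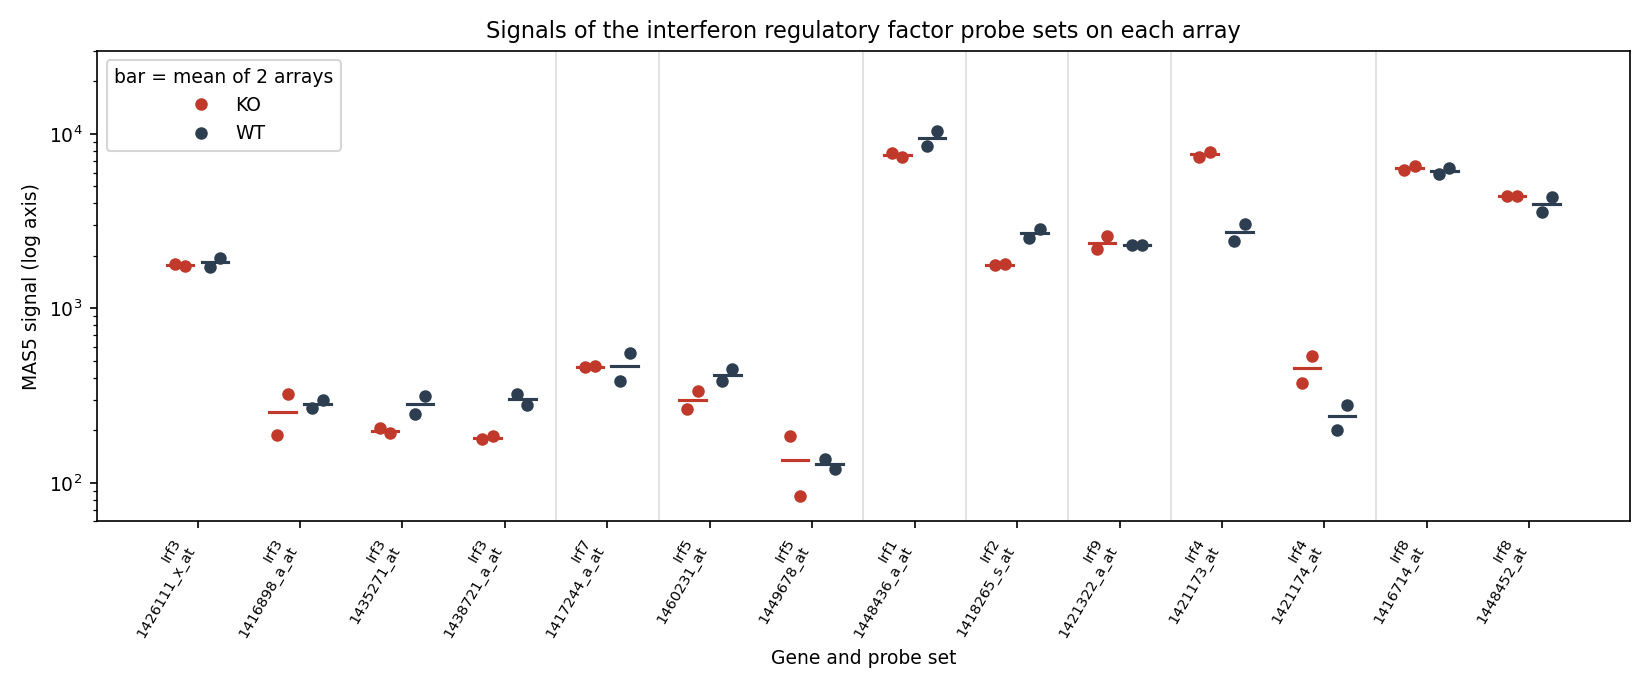
MAS5 signal (log axis) of each IRF probe set on each array, with KO (red) left of WT (dark) and a bar at the mean of the 2 arrays. The groups stand far apart at Irf4 1421173_at (7418 and 7884 in KO cells, 2441 and 3063 in WT cells) and lie on top of each other at Irf8 1416714_at.

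Irf4, the IRF that antigen receptor signals induce, gave the largest log2 fold change of the 14 probe sets. Its probe set 1421173_at had signals of 7418 and 7884 in KO cells, against 2441 and 3063 in WT cells. Both KO arrays lay above both WT arrays by more than the spread within either group. The means were 7651 ± 329.8 in KO cells and 2752 ± 439.8 in WT cells (SD, n = 2 each), a 2.79-fold rise with a 95% confidence interval of 2.29 to 3.40 (log2 fold change 1.48 ± 0.12 (SE), limma, adjusted p = 0.000172). Intervals given here are from the same moderated test and are not adjusted for the number of probe sets. The call held under all 13 alternatives, with log2 fold changes of 1.32 to 1.64.

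The other Irf4 probe set, 1421174_at, moved the same way by less. It had signals of 371 and 534 in KO cells, against 200.4 and 281 in WT cells, and the groups did not overlap. The rise was 1.82-fold with an interval of 1.23 to 2.69 (log2 fold change 0.86 ± 0.25, limma, adjusted p = 0.0445). This call was lost when all probe sets were tested without the filter, without the intensity trend, without KO replicate 2 (0.61) and without WT replicate 1 (0.64).

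The promoter sequence of Irf4, the member that changed most, is shown here as the 250 bases before its start (RefSeq, GRCm38.p6, chr13:30748983-30749232, plus strand). It holds none of the 5 motifs searched, so no letter is in capitals.
Irf4: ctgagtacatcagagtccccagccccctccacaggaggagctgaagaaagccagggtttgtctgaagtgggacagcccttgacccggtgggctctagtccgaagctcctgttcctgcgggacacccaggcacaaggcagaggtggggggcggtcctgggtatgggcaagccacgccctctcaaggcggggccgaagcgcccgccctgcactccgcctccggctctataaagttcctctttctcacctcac

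The motifs were searched on both strands in the 300 bases from 250 before to 50 after each RefSeq start, and a match is only a description of letters. The ISRE was taken as GAAA, any 2 bases and GAAA, which 3.44% of 32841 promoters hold. The STAT site GAS was taken as TTCNNNGAA (8.3%), the AP-1 site as TGANTCA (7.81%), and the joint site of IRF and AP-1 proteins as GAAA directly before TGANTCA, or TTTC and TGANTCA with any 4 bases between them (0.244%), of which each match also counts as an AP-1 match. The kappaB motif was searched by its usual consensus (4.51%). All 8 IRF genes matched by symbol, with 11 promoters, and 8 of the 11 hold none of the 5 motifs.

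Irf8, the close relative of Irf4 that is best known from myeloid, dendritic and B cells, did not pass the test at either probe set. Its probe set 1416714_at had signals of 6222 and 6554 in KO cells, against 5904 and 6377 in WT cells, so the groups overlapped. The KO signal was 1.04 times the WT signal, with an interval of 0.894 to 1.21 (log2 fold change 0.06 ± 0.10, adjusted p = 0.733, limma). Its other probe set, 1448452_at, gave 4407 and 4422 in KO cells and 3554 and 4329 in WT cells, or 1.12-fold with an interval of 0.933 to 1.36 (adjusted p = 0.369). The KO values lay just above the higher WT value there. Neither interval reaches beyond 1.36-fold in either direction. The promoter of the upstream Irf8 start holds 2 GAS matches, shown with 10 bases on each side and the match in capitals (GRCm38.p6, plus strand, chr8:120736177-120736205 and chr8:120736195-120736223).
Irf8 distal: caaaagtgatTTCTCGGAAagagagcgct
Irf8 proximal: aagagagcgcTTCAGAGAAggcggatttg

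Irf2, which competes with Irf1 for the same sites, was the only other member with a call, and it fell. Its single probe set had signals of 1763 and 1798 in KO cells, against 2529.5 and 2862 in WT cells. Both KO arrays lay below both WT arrays, and the 2 KO values were close to each other. The means were 1781 ± 25.0 in KO cells and 2696 ± 235 in WT cells (SD, n = 2 each), so the KO signal was 0.664 of that of WT, with an interval of 0.553 to 0.797 (log2 fold change -0.59 ± 0.12, limma, adjusted p = 0.0102). The call was lost without WT replicate 2 (-0.50, adjusted p = 0.0812) and without the intensity trend (adjusted p = 0.108). The name of this probe set, 1418265_s_at, marks probes shared by several transcripts.

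The Irf2 promoter is printed because it holds 3 of the motifs, in capitals: from its 5′ end an ISRE match, a GAS match and, close to the start, a kappaB match (GRCm38.p6, chr8:46739495-46739744, plus strand, 250 bases before the start). It was the only one of the 11 IRF promoters with an ISRE match.
Irf2: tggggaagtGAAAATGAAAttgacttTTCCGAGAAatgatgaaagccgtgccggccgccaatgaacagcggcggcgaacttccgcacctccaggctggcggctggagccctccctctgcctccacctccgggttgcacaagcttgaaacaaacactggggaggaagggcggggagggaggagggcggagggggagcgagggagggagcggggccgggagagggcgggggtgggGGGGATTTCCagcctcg

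Irf1, the activator that interferon-gamma induces, was lower in KO cells without passing the test. It had signals of 7773 and 7333 in KO cells, against 8572 and 10346 in WT cells. The groups did not overlap, but the WT arrays differed from each other by more than the gap between the groups. The KO signal was 0.802 of that of WT, with an interval of 0.673 to 0.956 (log2 fold change -0.32 ± 0.11, limma, unadjusted p = 0.0196, adjusted p = 0.0864). Without WT replicate 2 the log2 fold change was -0.18 (adjusted p = 0.510). Its upstream promoter holds a GAS match, in capitals (GRCm38.p6, plus strand, chr11:53769914-53769942), and a kappaB match nearer the start.
Irf1: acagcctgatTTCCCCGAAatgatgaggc

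Irf9, the DNA-binding subunit of ISGF3, had signals of 2187 and 2583 in KO cells, against 2303 and 2299.7 in WT cells. The KO arrays lay on either side of the WT arrays, and the KO signal was 1.03 times that of WT with an interval of 0.853 to 1.25 (adjusted p = 0.836, limma). Irf7, which interferon itself induces, had 462 and 465 in KO cells, against 382 and 555 in WT cells. Here the WT arrays lay on either side of the KO arrays, and the ratio of 1.01 had an interval of 0.727 to 1.39 (adjusted p = 0.987).

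Irf3, the latent factor that Tbk1 activates, was measured by 4 probe sets that differed in size of change. The probe set 1426111_x_at had 1799.99 and 1743 in KO cells, against 1730.1 and 1941 in WT cells, a log2 fold change of -0.05 ± 0.12 (adjusted p = 0.825). The groups overlapped, and its interval ran from 0.801 to 1.17 of the WT signal. The probe set 1438721_a_at had 177 and 186 in KO cells, against 324 and 279 in WT cells, a log2 fold change of -0.68 ± 0.21 that missed the threshold (adjusted p = 0.0589, limma). It passed under a stricter filter that left out 60% of probe sets in place of 40% (adjusted p = 0.0469). The other 2, 1416898_a_at and 1435271_at, were at -0.18 ± 0.27 and -0.46 ± 0.22. The name of 1426111_x_at marks probes that may bind other transcripts, and whether the 4 probe sets see different transcripts was not tested.

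Irf5, which acts below Toll-like receptors in myeloid and B cells, had no call at either probe set. Its probe set 1460231_at had 265 and 335 in KO cells, against 383 and 449 in WT cells. The groups did not overlap, and the KO signal was 0.729 of that of WT with an interval from 0.531 to just above 1 (log2 fold change -0.46 ± 0.20, adjusted p = 0.160, limma). The other probe set, 1449678_at, had 186 and 83.6 in KO cells, against 136 and 119 in WT cells, and its interval of 0.559 to 1.75 was the widest of the 14 on the log2 scale. Over the 11 probe sets without a call, 10 had intervals inside a 2-fold change in either direction, the exception being 1438721_a_at of Irf3.

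**Figure D2:**
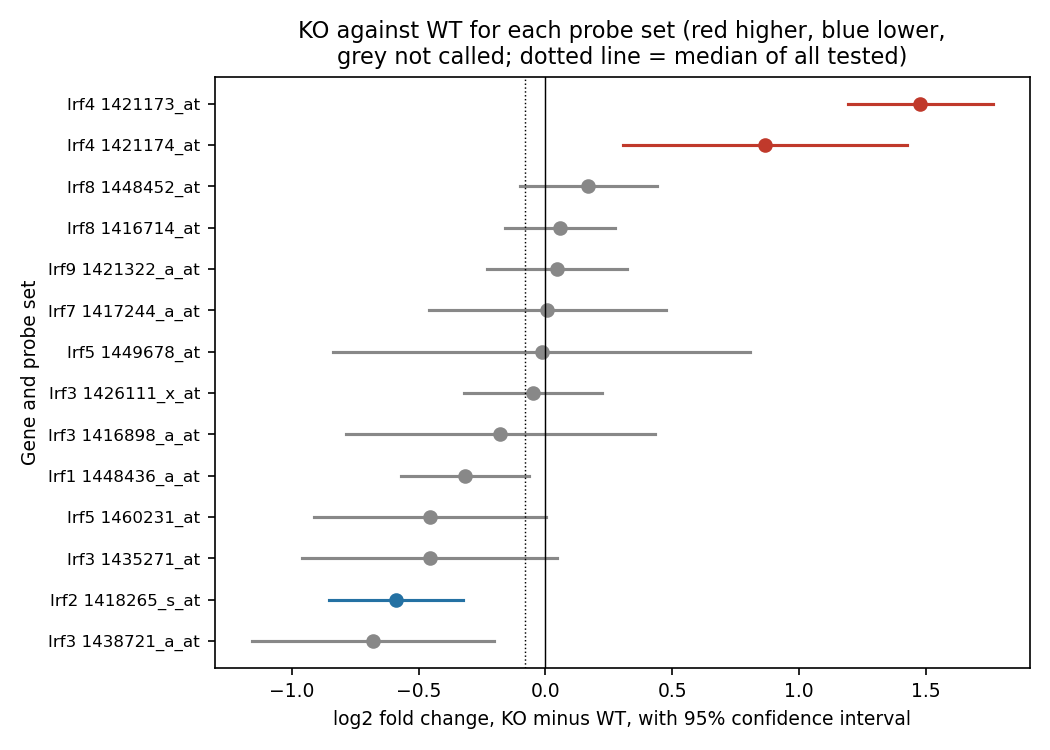
Log2 fold change, KO minus WT, of each IRF probe set with its 95% confidence interval, ordered by size. Both Irf4 probe sets (1.48 and 0.86) lie apart at the top, Irf2 (-0.59) is the only called fall, and the remaining intervals are grey. The dotted line is the median of all tested probe sets.

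The genes whose pattern over the 4 arrays was closest to that of Irf4 1421173_at were Tex261, Dennd3, AU020206 and Ccr4, a chemokine receptor of helper and Treg cells. Likeness was the root mean square difference of log2(signal + 16) after each probe set was centred on its own mean, and it was 0.015 for Tex261 and 0.030 for Ccr4. Their log2 fold changes were 1.48 ± 0.20 for Tex261, 1.52 ± 0.15 for Dennd3, 1.44 ± 0.13 for AU020206 and 1.45 ± 0.25 for Ccr4, and all 4 were called. Closest to Irf2 were Arrdc3 (-0.59 ± 0.16), Zfp219 (-0.62 ± 0.17), Zfp418 (-0.61 ± 0.32) and Rnf166 (-0.59 ± 0.16), of which Zfp418 was not called. Over 4 arrays many genes share such a pattern, and these are descriptions with no test.

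Several partners of IRFs rose together with Irf4 in KO cells, and others fell. Batf3, a leucine zipper factor that joins IRFs at composite sites, had signals of 1738 and 1358 in KO cells, against 158 and 300.2 in WT cells (log2 fold change 2.72 ± 0.27, limma, adjusted p = 0.00038). Batf, its relative and the best known Irf4 partner in T cells, had 2131 and 2498 in KO cells, against 718 and 1026 in WT cells (1.41 ± 0.18, adjusted p = 0.00128). Their partners Jun (1.33 ± 0.15) and Junb (1.03 ± 0.12) rose as well. For these 4 genes both KO arrays lay above both WT arrays. Spib, the Ets factor with which Irf4 and Irf8 pair in B cells, fell to 95.04 and 64.05 in KO cells, against 184 and 584 in WT cells (-1.88 ± 0.47, adjusted p = 0.0276).

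The call of Spib was lost without KO replicate 2, without WT replicate 2 (-1.08), without the filter and without the intensity trend, and its relative Spi1, the macrophage and B cell factor, was dim and not called (-0.60 ± 0.37). Among the NFAT factors, calcium-activated partners of Irf4, Nfatc2 rose (0.74 ± 0.10) and Nfatc1 fell (-0.89 ± 0.11). Each is called by 1 of its tested probe sets only, with log2 fold changes of -0.13 to 0.74 over 4 for Nfatc2 and -1.11 to 0.19 over 5 for Nfatc1. The coactivator Crebbp fell (-0.63 ± 0.12), and so did Irf2bp1, a corepressor that binds Irf2 (-0.74 ± 0.21, adjusted p = 0.047), whose call was lost under 8 of 13 alternatives, leaving out KO replicate 2 or either WT replicate among them. Its relatives Irf2bp2 (-0.38 ± 0.12) and Irf2bpl (0.11 ± 0.10), the coactivator Ep300 (-0.02 ± 0.12) and the exchange factor Def6 (-0.07 ± 0.11), which binds Irf4, did not pass. Of the 14 partners and cofactors, all tested, 5 rose, 4 fell and 5 did not pass. Without the intensity trend 1 rose, Batf3, and none fell, and without WT replicate 2 there were 2 falls. Over the 12546 genes tested by 1 probe set each, 20.3% were called, 10.5% higher and 9.88% lower. The list's median log2 fold change was -0.04, against -0.03 for all those genes.

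**Figure D3:**
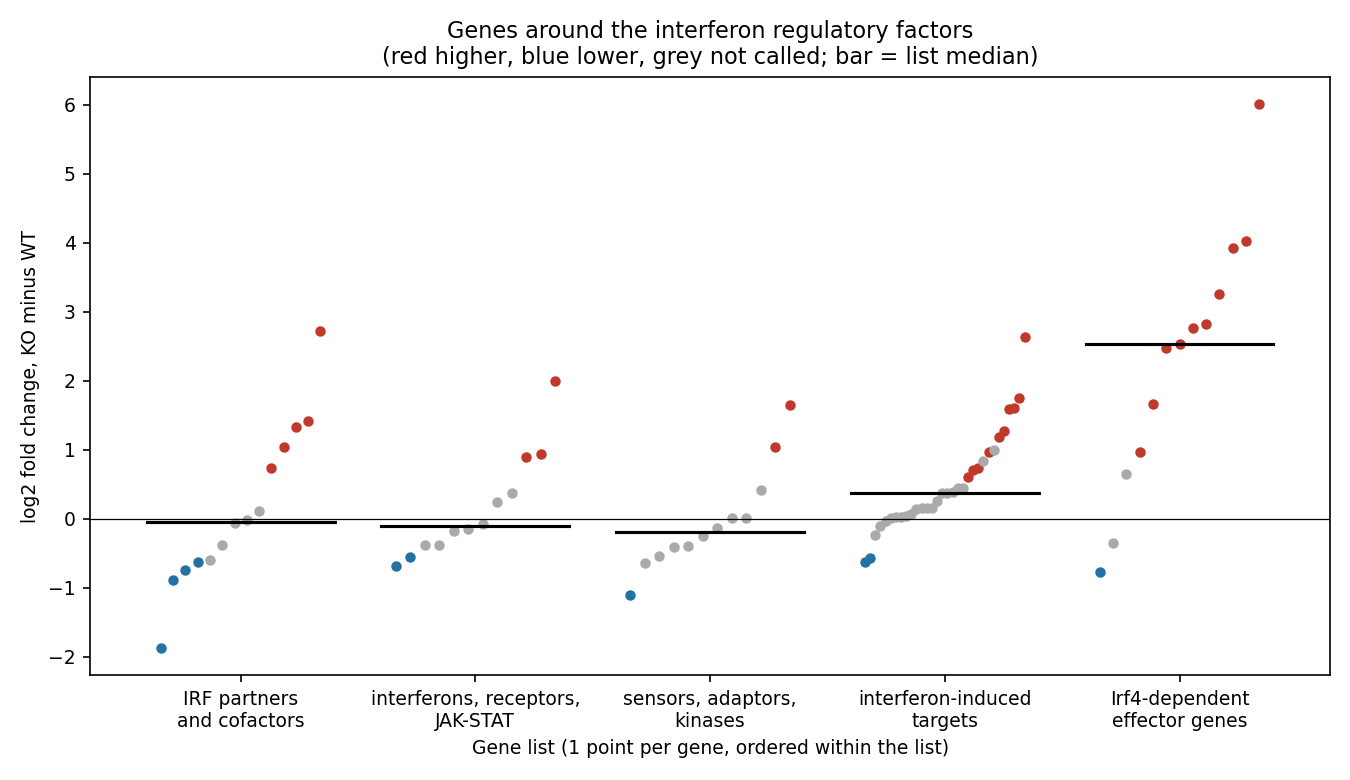
Log2 fold change, KO minus WT, of the genes in 5 lists around the IRFs, 1 point per gene, red where called higher, blue where called lower and grey where not called, with a bar at the list median. Partners spread from -1.88 (Spib) to 2.72 (Batf3), while the Irf4-dependent effector genes lie mostly above 0, with a median of 2.53.

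Upstream of the IRFs, genes of the interferon-gamma arm and of the type I arm changed. The cytokine gene Ifng rose (1.99 ± 0.18), and its receptor chain Ifngr1 had signals of 9573 and 9512 in KO cells, against 4762 and 5553 in WT cells (0.89 ± 0.10, limma, adjusted p = 0.000844). The other chain, Ifngr2, did not pass (-0.19 ± 0.16). The type I receptor chain Ifnar1 fell to 1208 and 1243 in KO cells, against 1896 and 1725 in WT cells (-0.56 ± 0.12, adjusted p = 0.0165), while Ifnar2 was at 0.24 ± 0.11 and did not pass. Il10rb, shared by the receptors of interleukin-10 and interferon-lambda, fell (-0.68 ± 0.11), and Stat2, the partner of Irf9 in ISGF3, rose (0.94 ± 0.23, adjusted p = 0.0267). Stat2 was called by 1 of its 2 tested probe sets, and the other was at 0.60. The call of Ifnar1 was lost without WT replicate 1, and that of Stat2 without KO replicate 2 or WT replicate 1.

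The type I interferon genes themselves were dim. Ifnb1 had 26.3 and 57.6 in KO cells and 84.9 and 36.9 in WT cells and was not called, and Ifna1, Ifna2 and Ifna4 lay below the filter. Of 12 tested genes of this list 3 rose, 2 fell and 7 did not pass, with a median of -0.11. These shares, 25% higher and 16.7% lower, stand beside 10.5% and 9.88% over all genes tested. Without the intensity trend 1 rose, Ifng, and none fell. No test was made between the 2 arms.

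Of the sensors, adaptors and kinases that activate IRFs, 9 of 12 tested did not pass. Ikbke, a kinase that phosphorylates Irf3 and Irf7, fell to 707 and 727 in KO cells, against 1333 and 1828 in WT cells (-1.11 ± 0.17, limma, adjusted p = 0.00309). Its relative Tbk1 had 3606 and 3969 in KO cells, against 3601 and 3899.6 in WT cells (0.01 ± 0.11), so the groups overlapped. Tlr7, a sensor of single-stranded RNA, rose (1.64 ± 0.37, 123 and 95.6 in KO cells, 27.5 and 20.5 in WT cells), and Ticam1, the adaptor of Tlr3, rose too (1.03 ± 0.29, adjusted p = 0.0432). The WT signals of Tlr7 were as dim as those of genes left out by the filter, so it passed the filter through its KO signals. Only 1 of its 3 probe sets was tested. The call of Tlr7 was lost without KO replicate 1, WT replicate 2 or the filter. The call of Ticam1 was lost under 6 of 12 alternatives, among them leaving out either KO replicate or WT replicate 1 (0.60). Tlr3, Tlr4 and Tlr9 lay below the filter. Of 12 tested genes 2 rose, 1 fell and 9 did not pass, with a median of -0.19. These shares, 16.7% higher and 8.33% lower, stand beside 10.5% and 9.88% over all genes tested. There were 3 falls without KO replicate 1 and 4 without KO replicate 2, and 1 rise without KO replicate 1, KO replicate 2 or WT replicate 2.

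Targets of IRFs and ISGF3 split into those that rose and a larger group that did not pass. Casp1, the inflammatory caspase, had signals of 699.5 and 661 in KO cells, against 83.6 and 110 in WT cells (2.64 ± 0.21, limma, adjusted p = 0.000132). Iigp1 (1.74 ± 0.12), an interferon-induced GTPase, Isg20 (1.59 ± 0.15), an exonuclease, and Zbp1 (1.27 ± 0.14), a nucleic acid sensor, were the other 3 with the smallest p. Oas3, Usp18, Oas1a, Socs1, Bst2 and Irgm1 completed the rises, at 0.60 to 1.61. Ifit2 (-0.63 ± 0.14) and Tap1 (-0.58 ± 0.12), the peptide transporter of antigen presentation, fell. The immunoproteasome genes Psmb8 (0.02 ± 0.09) and Psmb9 (0.15 ± 0.09) and the class I transactivator Nlrc5 (0.01 ± 0.11) did not pass. Of 32 tested targets 10 rose, 2 fell and 20 did not pass, and the median was 0.38, beside 10.5% higher and 9.88% lower over all genes tested. Without the probe sets marked as shared between transcripts, to which those of Iigp1, Isg20, Zbp1 and Socs1 belong, 6 rose. Likewise 6 rose without the intensity trend. The call of Tap1 was lost without WT replicate 2, that of Ifit2 without either WT replicate, that of Oas1a without KO replicate 1 or WT replicate 1, and that of Oas3 without KO replicate 1. Families such as Oas, Gbp and Irgm hold close relatives, between which probes can share signal.

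The ISRE itself was found in any promoter of the gene for 57.7% of the 26 targets with a promoter at hand. The 3.44% over all promoters counts single promoters, so the measures differ where a target has several. These genes were listed as targets of IRFs and ISGF3, so the high share is not independent evidence. Of the 15 tested targets with a match 5 rose and none fell, with a median of 0.39, and of the 9 tested without a match 2 rose and 2 fell, with a median of 0.15. The difference was not tested. 6 matches are shown with 8 bases on each side and the match in capitals, all in GRCm38.p6. They are 1 each of Oas3, Socs1, Bst2 and Irgm1, which rose, and of Irgm2 and B2m, which were not called (log2 fold changes -0.03 and 0.02). They lie at chr5:120777717-120777742, chr16:10785596-10785621, chr8:71537579-71537604 and chr11:48871427-48871452 on the minus strand, and at chr11:58214905-58214930 and chr2:122147540-122147565 on the plus strand. Socs1, Bst2 and Irgm1 each hold another match, which starts in the lower-case bases before the one shown and overlaps it. The matches of Oas1a, which also rose, are not shown.
Oas3: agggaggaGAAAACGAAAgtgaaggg
Socs1: cggaaagaGAAACCGAAAgcgggggt
Bst2: aggaaaatGAAACTGAAAggctgcag
Irgm1: aagaaataGAAACCGAAActgattct
Irgm2: caggaactGAAACTGAAAgctgttcg
B2m: aagaacatGAAACTGAAAatgggaaa

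Of the effector genes that need Irf4 in T cells, 10 of 13 tested rose. Il10, the anti-inflammatory cytokine gene (6.01 ± 0.23), Maf, a factor that drives it (4.02 ± 0.18), the helper cytokine gene Il9 (3.92 ± 0.20) and the costimulatory receptor gene Icos (1.66 ± 0.11) had the smallest p. Bcl6, the follicular helper factor, fell (-0.78 ± 0.19), and Gata3 (-0.36 ± 0.13) and Ccr8 (0.65 ± 0.25) did not pass. Bcl6 was called by 1 of its 2 tested probe sets, and the other was at -0.74. The share called higher was 76.9%, against 10.5% of all genes tested. This list and the others were drawn up with earlier results of these arrays known, so the count is not independent evidence of a direction. Il4, 1 of the 10, was dim in WT cells (28.75 and 29.67). Markers of mast cells and basophils also rose in the KO samples, as given below. The part of such cells in the rises of this list was not tested. The call of Bcl6 was lost without KO replicate 1 or WT replicate 2.

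T cell markers were bright on all arrays, with a summed signal over 9 genes of 74514 and 72613 in KO cells, against 59753 and 59071 in WT cells. Of the 9, the chains Cd3d, Cd3e and Cd3g of the antigen receptor complex rose (0.35 to 1.26), and 2 fell, namely Foxp3, the factor that defines Treg cells (-1.03 ± 0.13, limma, adjusted p = 0.00123), and Cd5, which dampens receptor signals (-0.82 ± 0.09, adjusted p = 0.00079). Foxp3 had signals of 947 and 1101 in KO cells, against 2177 and 2033 in WT cells. IRFs are also expressed by other cells, so markers of these were read beside them. Over all genes tested 10.5% were called higher and 9.88% lower, which is the measure for the marker counts here. Of 6 tested B cell markers none was called by limma (2 at an unadjusted p under 0.05). Sums given for a list cover every marker with a probe set, tested or not. Over 7 B cell markers they were 1425 and 882 in KO cells, against 624 and 1461 in WT cells. Of 7 tested monocyte and macrophage markers 5 rose, among them Adgre1 (1.61 ± 0.26) and Lyz2 (1.87 ± 0.33), while Csf1r did not pass (-0.11 ± 0.29), and sums were 5326 and 4646 in KO cells, against 2247 and 2416 in WT cells. Of 4 tested plasma cell markers 3 rose, led by Jchain (5.40 ± 0.29), and sums were 28787 and 24689 in KO cells, against 20466 and 20743 in WT cells, most of it from Xbp1, which did not pass (0.02 ± 0.08).

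Of 9 tested mast cell and basophil markers 8 rose, led by Mcpt1 (7.38 ± 0.25), while Kit did not pass (0.32 ± 0.16). Sums over these 9 were 44262 and 29974 in KO cells, against 862 and 1370 in WT cells. Of 4 tested NK cell markers 2 rose. Sums over 5 NK cell markers were 9097 and 6393 in KO cells, against 1811 and 1923 in WT cells. Of 5 tested markers each, the conventional dendritic cell list had 1 rise (Batf3), and the plasmacytoid list had rises of Ccr9 and Bst2 and the fall of Spib. For all these lists the shares over all genes tested were 10.5% higher and 9.88% lower. The conventional list summed to 2685 and 2082 in KO cells, against 1188 and 4828 in WT cells, and the plasmacytoid list to 4434 and 4400.3 in KO cells, against 1658 and 2326 in WT cells. No marker was listed at a signal of 0 on any array, and the lowest values were at 2.50 to 8.18 in these 7 lists. The part of such cells in the rise of Irf4, in the levels of Irf8 and Irf5, or in the changes of the list genes was not tested.

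**Figure D4:**
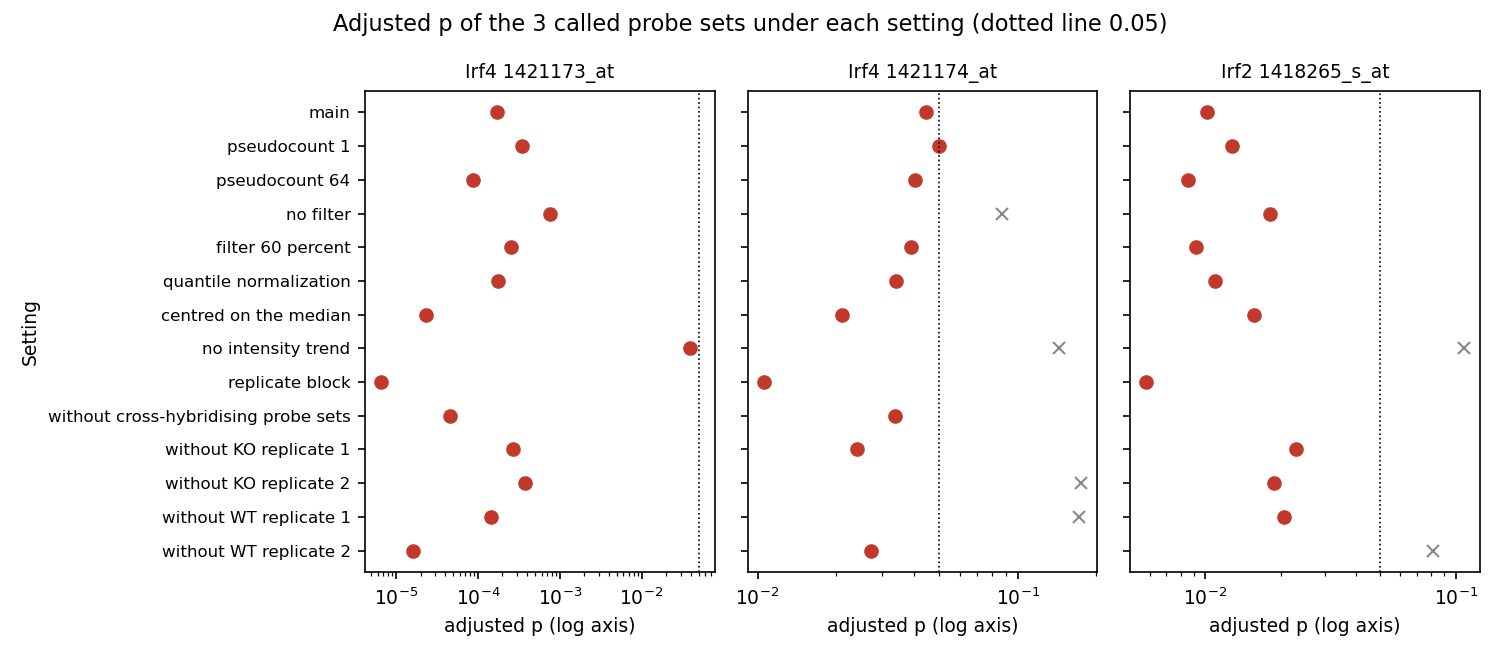
Adjusted p (log axis) of the 3 called IRF probe sets under the setting reported and each alternative, with circles under 0.05 and crosses above it. Irf4 1421173_at stays left of the dotted line under all 13 alternatives, with its highest value (0.0388) without the intensity trend, whereas Irf4 1421174_at and Irf2 cross it under 4 and 2 alternatives.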

How the data were processed

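The authors deposited 1 linear intensity per probe set for each of 4 single-colour arrays, and the submitters' processing notes name MAS5. MAS5 signals are scaled per array, which removes differences in total RNA, and dim signals are noisy. Of 45101 probe sets, 64 controls and the 40% with the lowest mean log2(signal + 16) were left out. The genotypes were compared with limma 3.58.1 under R 4.3.3, by lmFit and by eBayes with an intensity trend, with Benjamini-Hochberg adjustment over 27022 probe sets (2 residual and 6.41 prior degrees of freedom). For lists, the probe set with the highest mean stood for each gene. The fit was tested on simulated data.

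Named were all members, up to 4 genes of each list with the smallest p, genes in counts of 5 or fewer, 4 genes most like Irf4 and Irf2, and some others chosen after their values were seen. The members and lists were chosen with earlier results of these data known. Alternatives were a pseudocount of 1 or 64, other filters, quantile or median scaling, no trend, a replicate block, no probe sets marked as shared between transcripts, and each array left out.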

Additional observations from a re-analysis of the deposited data

How the results depend on the processing

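Under the alternatives 1 to 4 IRF probe sets were called, against 3 as reported. Without the intensity trend 1 IRF probe set (Irf4 1421173_at), 16 of the pathway genes (40 as reported) and 1183 of all probe sets (4608 as reported) were called, and the cause was not tested. Leaving out single arrays gave 2 or 3 IRF probe sets, 36 to 40 pathway genes and 2786 to 4387 of all probe sets, the last at 3032 without WT replicate 1 and at its lowest without WT replicate 2. Beside the losses given with each list gene, Stat2, Oas1a and Bcl6 lost their call without the filter. Without the intensity trend these lost it too, as did Ifnar1, Ifngr1, Il10rb, Ikbke, Ifit2, Tap1, Irgm1, Socs1, Bst2, Il4, Il17a and Ctla4. With 1 array left in a group, it is assumed to vary like the others. Without probe sets marked as shared, 2 IRF probe sets were called, since Irf2 has no other.

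Array numbers are shared between genotypes, but deviations of same-numbered arrays correlated at r = 0.010, so the numbers are not taken to pair the arrays. With a replicate block 3 IRF probe sets, 44 pathway genes and 5382 of all probe sets were called, and none of the called IRF probe sets and called genes of the 5 lists lost its call. The markers and the genes most like Irf4 and Irf2 were not refitted under the alternatives.

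Among the IRF probe sets and the called genes of the lists, signs turned at 5 IRF probe sets without a call. List genes without a call were not followed. The log2 fold change of Irf5 1449678_at was 0.0051 with a pseudocount of 64, 0.045 with quantile normalization and 0.025 centred on the median. With single arrays left out it ran from -0.53 to 0.50 (lowest without KO replicate 1, highest without KO replicate 2), Irf9 from -0.073 (without KO replicate 2) to 0.17, Irf7 from -0.25 (without WT replicate 1) to 0.27, Irf3 1426111_x_at from -0.13 to 0.034 (without WT replicate 2) and Irf3 1416898_a_at from -0.55 to 0.19 (without KO replicate 1). Centred on the median, 2266 of all probe sets were higher and 2136 lower, against 2131 and 2477 as reported. No scaling moved the median of all probe sets by over 0.1.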
